A study of Homo sapiens with 6 samples.

Results

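The genes described here are GLI3 and 9 further genes of the Hedgehog pathway, namely GLI1, GLI2, PTCH1, SMO, SUFU, CDON, BOC, GAS1 and HHIP. A GSX2 region was counted for a gene when its strongest summit lay nearest to that gene's span among 19974 protein-coding genes, and peaks of the 3 replicates that overlapped by at least 1 bp were merged into 1 region. This gave 40 regions of 15743 in all. The measurements come from chromatin immunoprecipitation and sequencing of tagged GSX2 in H9, an established line of human embryonic stem cells, differentiated toward progenitors of the lateral ganglionic eminence. All cells carried a TRE3G 2xFLAG-GSX2 WT transgene, which doxycycline switches on, and were given 100 ng/mL doxycycline for 12 hours from day 10. Chromatin was taken at day 10.5 and precipitated with the M2 antibody to FLAG, in 3 replicates. The labels do not say whether the line is a single clone or whether the replicates are separate cultures, so their spread may be technical in part. The agents named for the differentiation are LDN193189, SB431542, XAV939, IWP2 and Activin A, and the labels name no Hedgehog agonist or antagonist. The 3 input samples have no values here, no cells without the transgene were analysed, and the sole group allows no contrast of conditions. The data therefore show where GSX2 made from a transgene was found, not what it did to these genes.

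Hedgehog ligands bind the receptor Patched, encoded by PTCH1, and thereby release Smoothened, encoded by SMO, from inhibition. Smoothened acts through the cilium on the zinc finger factors GLI1, GLI2 and GLI3, which SUFU holds in check. Without ligand, GLI3 is cut to a repressor. In the mouse telencephalon this repressor is needed for dorsal territories, while Hedgehog signalling favours ventral ones. GSX2 is a homeodomain factor of the lateral ganglionic eminence, in the ventral telencephalon, and homeodomains bind DNA around a TAAT core.

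PTCH1 and GAS1 are shown by sequence because they are the members with a GSX2 summit inside the 250 bases before a listed start of transcription. PTCH1 encodes the ligand receptor and is itself a textbook target of GLI factors, and GAS1 encodes a membrane coreceptor. The PTCH1 window is chr9:95509267-95509516 and the GAS1 window is chr9:86947507-86947756, both on the minus strand of GRCh38.p14, written 5′ to 3′ up to the last base before the start, from RefSeq. Capitals mark each TAAT core, on either strand (TAAT or ATTA), and each match to the GLI site GACCACCCA, on either strand (GACCACCCA or TGGGTGGTC).
PTCH1: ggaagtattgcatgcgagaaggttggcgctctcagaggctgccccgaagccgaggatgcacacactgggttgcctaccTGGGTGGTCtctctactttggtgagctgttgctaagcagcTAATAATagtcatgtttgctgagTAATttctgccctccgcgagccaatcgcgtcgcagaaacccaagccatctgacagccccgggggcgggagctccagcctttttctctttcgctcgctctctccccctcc
GAS1: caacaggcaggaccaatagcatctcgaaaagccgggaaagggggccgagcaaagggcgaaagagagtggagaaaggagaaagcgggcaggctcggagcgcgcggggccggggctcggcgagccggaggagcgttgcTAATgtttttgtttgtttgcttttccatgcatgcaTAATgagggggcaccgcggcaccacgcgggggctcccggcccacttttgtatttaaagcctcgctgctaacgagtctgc

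In the PTCH1 window the TAAT cores began 132, 129 and 109 bases before the start, the first 2 of them overlapping by 1 base, and the GLI-site match began 172 bases before it. The PTCH1 summits of replicates 1, 2 and 3 were 141, 99 and 176 bases before the start. All 4 matches lay between the nearest and the farthest of these summits. At least 3 TAAT matches were present in 11.7% of 22012 windows of this length at protein-coding genes, and at least 1 was present in 40.3%. The GLI-site match was present in 42 windows (0.191%), and the longer homeodomain word TAATTA, absent from both printed windows, in 3.16%. The GLI-site word was chosen after seeing the data. These shares are per window, and the PTCH1 window was picked for its summits from 5 listed ones. The GAS1 window held 2 TAAT cores and no GLI-site match. Its summit was 34 bases before the start and came from replicate 1 alone. A match in these letters is a description and does not show what GSX2 bound.

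GLI3 had by far the most GSX2 regions of the 10 genes. Of its 18 regions, 11 held a peak of all 3 replicates, and the other 7 held a peak of 1 replicate. PTCH1 had 2 regions of all 3 replicates, and SUFU and CDON had 1 each. GLI2, BOC, GAS1 and HHIP had regions of 1 or 2 replicates only, and no region was nearest to GLI1 or SMO. In all, 4 of 10 genes had at least 1 region of all 3 replicates, against 12.3% of all protein-coding genes, and 8 of 10 had a region of any replicate, against 32.6% of all. The genes differ in the room they have for regions. The stretch over which GLI3 is the nearest protein-coding gene is 753.6 kb long, against a median of 66.4 kb for all protein-coding genes. It is 13.4 kb for GLI1 and 40.1 kb for SMO. It is 573 kb for GAS1, 560.8 kb for GLI2 and 476.5 kb for HHIP, none with a region of all 3 replicates. For PTCH1, BOC, CDON and SUFU it is 316, 249.8, 137 and 136.2 kb. The part of this length in these counts was not tested.

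**Figure D1:**
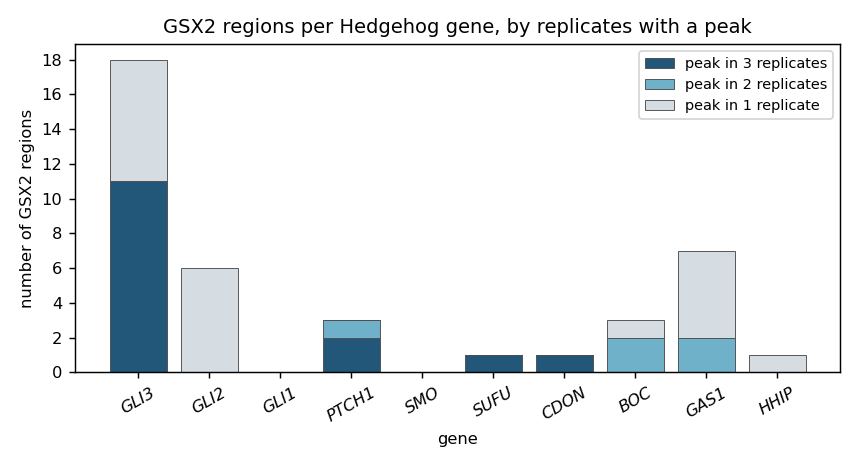
Number of GSX2 regions (vertical axis) nearest to each of the 10 Hedgehog genes, split by how many replicates had a peak in the region. GLI3 has 18 regions, 11 of them with a peak in all 3 replicates, and GLI1 and SMO have none.

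Most GLI3 regions recurred between replicates. The share with a peak in all 3 replicates was 61.1% at GLI3 (11 of 18), 18.2% at the other 9 genes together (4 of 22), and 22.5% over all 15743 regions. Replicates 1, 2 and 3 had a peak in 14, 13 and 13 of the GLI3 regions. Of these, the 11 regions of all 3 replicates count for every replicate by definition. The 3 lists were 9859, 7471 and 9122 peaks long (chromosomes 1 to 22 and X). Over all 10 genes these lists held 28, 22 and 26 peaks. They give no read counts, and the sequencing depth is unknown.

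By number of regions of all 3 replicates, GLI3 stood second among all 19974 protein-coding genes. At least 11 such regions were found at 2 genes (0.01%), GLI3 and the zinc finger gene ZNF608, which had 14. The next were CADPS2, DACH1 and TLE4, with 9 each. These 4 genes were named after their values were seen. ZNF608 is the nearest gene over 1427 kb and had 4 of its regions inside its span, while GLI3 had 9 of 11 inside. CADPS2, DACH1 and TLE4 had 9, 6 and 5 of their 9 regions inside. No other gene had exactly 11 regions, so no gene matched GLI3 in this number. Among 1796 genes with spans of 0.5 to 2 times that of GLI3 (151.7 to 606.6 kb), 1101 had no region of all 3 replicates (61.3%), and GLI3 alone reached 11 (0.0557%). Of the 1761 genes with a nearest-gene stretch of 0.5 to 2 times that of GLI3, 1 had more regions, and 53.0% had none. These ranks describe the lists. GLI3 was chosen with earlier results of these data known, and no test was made of them.

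**Figure D2:**
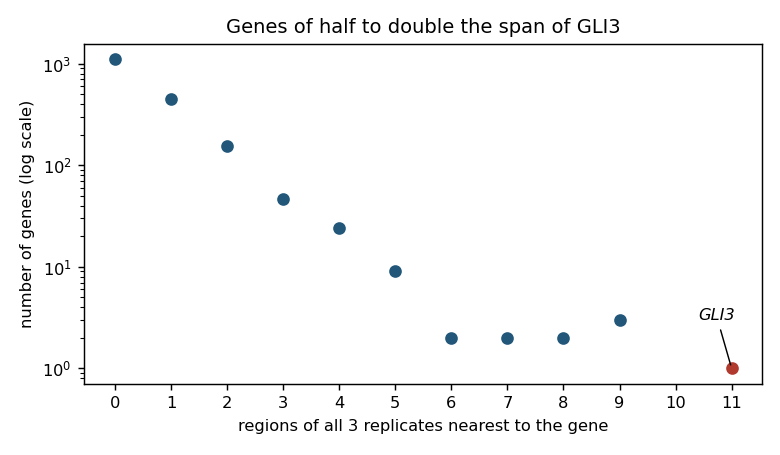
Number of protein-coding genes (vertical axis, log scale) by their count of regions with a peak in all 3 replicates (horizontal axis), for the 1796 genes with spans of 0.5 to 2 times that of GLI3. GLI3 is the gene at 11, and 1101 genes are at 0.

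The GLI3 span covers 41960949 to 42264268 of chromosome 7 (hg38), 303.3 kb. Positions below are given as distances from its end of lower coordinate, whatever the direction of transcription. The annotation used for GLI3 gives the ends of the span, so exons and introns were not told apart. The 9 inner regions of all 3 replicates lay between 91.8 and 273.9 kb. The 91.8 kb next to the end of lower coordinate and the 29.4 kb next to the other end held no such region. These 9 regions numbered 2.97 per 100 kb of span, against a mean of 0.158 per 100 kb over the genes of like span. Of those genes, 1 was denser (TLE4, 3.23 per 100 kb). The other 2 regions of all 3 replicates lay 74.9 and 258.0 kb beyond the end of higher coordinate. Below the span lay a single region, 17.7 kb away and in replicate 1 alone.

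The strongest GLI3 region was the one at 91.8 kb (chromosome 7, 42052587 to 42052996). Its fold enrichment, the authors' ratio of the peak's signal to the caller's background, was 20.6, 11.5 and 23.6 in replicates 1, 2 and 3 (18.5 ± 6.3, SD, n = 3). Replicate 2 was well below the others there, and the mean was above that of 94.2% of all 3537 regions of 3 replicates. The region at 105.0 kb (42065696 to 42066183) had 16.4, 11.9 and 7.58-fold (12.0 ± 4.4). That at 130.9 kb (42091537 to 42092190) had 18.1, 7.76 and 15.1-fold (13.6 ± 5.3). In both, replicate 1 was the highest, while the lowest was replicate 3 at 105.0 kb and replicate 2 at 130.9 kb.

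Farther from the end of lower coordinate, the region at 191.6 kb (42152272 to 42152883) had 9.33, 13.3 and 17.5-fold in replicates 1, 2 and 3 (13.4 ± 4.1, SD, n = 3). The region at 238.4 kb (42199196 to 42199493) had 11.0, 5.58 and 12.3-fold (9.61 ± 3.55). Here replicate 2 was less than every value of the region at 191.6 kb. The region at 252.0 kb (42212618 to 42213157) was the second most even between replicates, with 8.64, 8.24 and 9.41-fold (8.76 ± 0.59).

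A group of 3 regions stood closest together, within 7.32 kb from the first position to the last. The first, at 266.6 kb (42227421 to 42228234), had 7.77, 8.03 and 8.23-fold in replicates 1, 2 and 3 (8.01 ± 0.23, SD, n = 3) and was the weakest of the 11. The second, at 269.2 kb (42229837 to 42230383), had 14.9, 12.4 and 20.2-fold (15.8 ± 4.0). The last, at 273.9 kb (42234661 to 42235772), had 14.2, 17.0 and 14.9-fold (15.4 ± 1.4). The values of the first did not overlap with those of the other 2, of which the nearer was 2.58 kb away. The last was the widest of the GLI3 regions at 1112 bp, with 2, 3 and 2 summits in replicates 1, 2 and 3.

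The 2 outer regions were about as strong as the inner ones. The region 74.9 kb beyond the end of the span (42338864 to 42339415) had 17.9, 15.0 and 12.9-fold in replicates 1, 2 and 3 (15.3 ± 2.5, SD, n = 3). The region 258.0 kb beyond it (42522053 to 42522631) had 15.3, 13.3 and 11.9-fold (13.5 ± 1.7). Replicate 1 was highest and replicate 3 lowest in both. Each lay nearer to the span of a long noncoding RNA gene, LOC105375249 and LOC105375250, than to GLI3. The nearest protein-coding gene need not be the gene a region acts on. The next region on this side, 575.4 kb from GLI3, was nearest to C7orf25 and had 10.3 ± 2.0-fold in all 3 replicates. On the other side, the next was 319.0 kb away and nearest to INHBA, with 9.08-fold in 1 replicate.

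**Figure D3:**
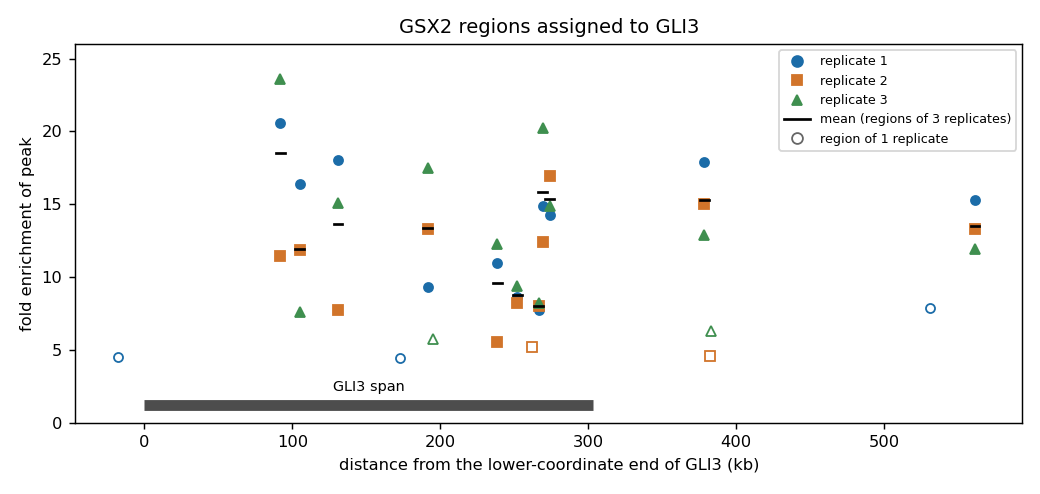
Fold enrichment (vertical axis) of every peak in the 18 regions assigned to GLI3, by distance in kb from the end of lower coordinate of the gene (horizontal axis). Filled symbols are regions with a peak in all 3 replicates, with a bar at the mean, and open symbols are regions of 1 replicate, which all lie below 8-fold.

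Over the 11 GLI3 regions the mean fold enrichment ran from 8.01 to 18.5 with a median of 13.5, against a median of 9.49 over all regions of 3 replicates. Of the 11, 9 were above that overall median, which 50% of all such regions exceed by definition. The coefficient of variation between replicates had a median of 25.4% at GLI3 and 19.5% over all regions of 3 replicates. With SDs of this size the order among the regions from 12.0 to 18.5-fold is not resolved. Replicate 2 was the lowest in 5 of the 11, against 36.0% of all regions of 3 replicates, and replicate 3 was the highest in 6, against 34.7%. Summits of the replicates lay 11 to 76 bases apart with a median of 31, against a median of 30 over all. The median width of the merged regions was 552 bp, against 392 bp over all, and 4 of the 11 had a peak with several summits, against 11.7% over all.

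The 7 GLI3 regions of 1 replicate were weaker, at 4.46 to 7.88-fold with a median of 5.20. Replicate 1 gave 3 of them, replicate 2 gave 2 and replicate 3 gave 2. The strongest was 227.7 kb beyond the end of higher coordinate (7.88-fold, replicate 1). A peak of replicate 2 (4.61-fold) and a peak of replicate 3 (6.29-fold), about 79 kb beyond that end, were 7 bases apart. The rule of 1 bp overlap therefore counted them as 2 regions.

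GLI2, which encodes the main activator of the pathway, spans 256.8 kb on chromosome 2 and is the nearest protein-coding gene over 560.8 kb. It had no region of all 3 replicates and 6 regions of 1 replicate each, at 5.02 to 9.19-fold. Replicate 3 gave 4 of them, and replicates 1 and 2 gave 1 each. The strongest (9.19-fold, replicate 2) was 6.80 kb past a listed start, inside the gene (120798993 to 120799165). A peak of replicate 3 (5.34-fold) and a peak of replicate 1 (5.02-fold), about 25 kb beyond the gene, were 75 bases apart. The nearest region of all 3 replicates was 422.6 kb from the GLI2 span and nearest to LOC105373989, with 12.5, 7.32 and 9.49-fold in replicates 1, 2 and 3.

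GLI1, a factor whose own transcription is a common readout of the pathway, had no region. The closest, 198.0 kb away inside R3HDM2, had peaks in 2 replicates and a mean of 7.62-fold. SUFU, the inhibitor that binds GLI proteins, had a single region of all 3 replicates (chromosome 10, 102503264 to 102503774). Its values were 9.82, 8.09 and 7.09-fold in replicates 1, 2 and 3 (8.33 ± 1.38, SD, n = 3). All 3 were below the median of the 11 GLI3 regions. The region lay 592 bases before the listed start of SUFU and 0.561 kb inside the gene's span, which begins ahead of that start.

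Of the receptor genes, PTCH1 had GSX2 at one of its 5 listed starts and no region was nearest to SMO. The region at the start printed above (chromosome 9, 95509219 to 95509848) had 4.97, 6.52 and 8.02-fold in replicates 1, 2 and 3 (6.50 ± 1.52, SD, n = 3). It lay inside the PTCH1 span, 7.56 kb from the end of higher coordinate. A further region, 89.5 kb before the outermost start (95606118 to 95606761), had 4.75, 6.87 and 7.09-fold (6.24 ± 1.29). It lay nearer to the span of a long noncoding RNA gene, LOC105376158, than to PTCH1. Replicate 1 was the lowest in both, and both were weak for regions of 3 replicates, above only 9.36% and 6.90% of them. Summits of the distant region were 365 bases apart between replicates, against a median of 30 over all. Another region, 15.3 kb past the other end of the gene, had 6.02 and 4.85-fold in replicates 1 and 2. The region closest to SMO was 13.0 kb beyond it, inside AHCYL2, with peaks in 2 replicates and a mean of 6.03-fold.

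CDON, BOC and GAS1 encode membrane proteins that help ligands engage Patched, and of these 3 genes CDON alone had a region of all 3 replicates. Its region, inside the gene 25.3 kb past the nearest listed start (chromosome 11, 126033934 to 126034294), had 9.35, 9.24 and 9.89-fold in replicates 1, 2 and 3 (9.49 ± 0.34, SD, n = 3). It was the strongest of the 4 regions of all 3 replicates outside GLI3, and its values were the closest together of these 4. BOC had 3 regions inside its span, 2 of them in 2 replicates. The strongest (113275799 to 113276393 on chromosome 3) had 8.29 and 6.64-fold in replicates 1 and 2, and the next had 5.01 and 7.29-fold in replicates 2 and 3.

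GAS1 is a short gene of 3.15 kb that is the nearest protein-coding gene over 573.0 kb. It had 7 regions and no peak of replicate 2 in any of them, while replicate 1 had 6 and replicate 3 had 3. The strongest (7.55-fold) was in replicate 1 alone, 126.3 kb from the start. The 2 regions of replicates 1 and 3 had 7.20 and 4.06-fold at 126.6 kb before the start, and 5.72 and 4.81-fold at 180.7 kb past it. The region at the GAS1 start had 5.83-fold in replicate 1. HHIP, which encodes a membrane protein that binds and sequesters ligand, had 1 region, 9.02 kb past the gene, with 8.42-fold in replicate 2 alone.

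**Figure D4:**
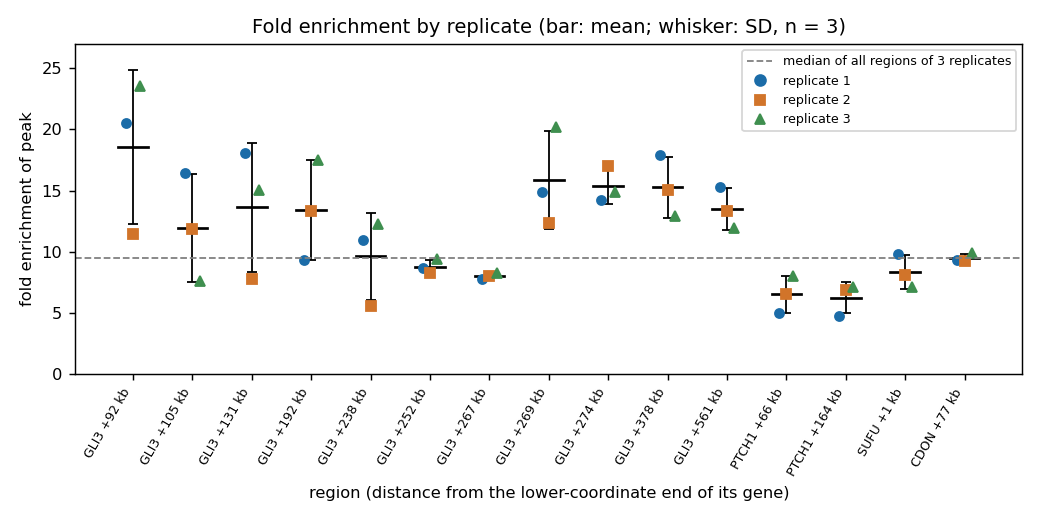
Fold enrichment (vertical axis) in each replicate for the 15 regions with a peak in all 3 replicates, with the mean (bar) and SD (whisker, n = 3), ordered by gene and position. The dashed line is the median of all regions of 3 replicates (9.49), above which 9 of 11 GLI3 regions and 1 of 4 others have their mean.

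Of the 15 regions of all 3 replicates, 12 lay inside a member's span (80.0%), against 51.3% of all regions of 3 replicates. GLI3 alone held 9 of these 12, and the other 9 members held 3. Over regions of any replicate, 20 of the 40 at members lay inside, against 50.9% of all 15743 regions. The count was 12 of 18 at GLI3 and 8 of 22 at the other 9 members. A listed start was at hand for 8 members, GLI3 and GLI1 not among them, so the 11 GLI3 regions have no distance to one. Of these 8, PTCH1 and SUFU had a region of all 3 replicates within 1 kb of one, against 1.71% of 15812 protein-coding genes. GAS1 was the only further member with a region of any replicate there, against 8.46% of those genes.

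Other genes of the pathway were taken from a list of 56, chosen from general knowledge of Hedgehog signalling. Of these 56 genes, 18 had a region of all 3 replicates (32.1%), against 12.3% of all protein-coding genes. Most of the list, 32 of 56 genes, had a region of any replicate, against 32.6% of all protein-coding genes. The 18 genes with a region of all 3 replicates were unevenly spread over roles. All 4 genes listed as coreceptors or glypicans had one (the glypican genes GPC3, GPC4 and GPC6, and LRP2, which encodes megalin). So did 6 of 11 genes listed as targets. Of the members described above whose membrane proteins engage ligand, PTCH1 and CDON had such a region, and BOC, GAS1 and HHIP had none. On the list, the count was 1 of 3 for ligands, 2 of 6 for ligand release and 2 of 16 for genes of the cilium. The strongest such region of 1 of these 2 cilium genes lay 1028 kb from its span. The count was 3 of 16 for kinases, cyclases, arrestin and degradation, a class that also held SIN3A and SAP18. The LRP2 region had 6.91, 4.66 and 6.70-fold in replicates 1, 2 and 3 (6.09 ± 1.24, SD, n = 3). This was below the median of 9.49 over all regions of 3 replicates, while the strongest at GPC3 had 10.1 ± 0.8-fold. The roles were not matched on the length of their genes, and differences between them were not tested.

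The strongest region on this list was inside GPC4, with 30.3, 23.0 and 30.1-fold in replicates 1, 2 and 3 (27.8 ± 4.2, SD, n = 3; chromosome X, 133308836 to 133309335). The values of replicates 1 and 3 were above every value at GLI3. GPC6 held one of 23.1, 14.8 and 20.8-fold (19.6 ± 4.3; chromosome 13, 93805525 to 93806091). Of the genes of ligand release, SCUBE1, which encodes a secreted protein of the Scube family, had the strongest region inside its span, with 15.5, 12.1 and 16.3-fold (14.6 ± 2.2). ADCY5, which encodes an adenylyl cyclase that makes the activator of protein kinase A, had 9.35, 16.4 and 11.8-fold (12.5 ± 3.6).

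The 11 genes were listed as targets from general knowledge, and how each responds to Hedgehog signalling was not examined here. Among them, the region nearest to NKX2-1, a ventral determinant, had 28.4, 24.7 and 29.5-fold in replicates 1, 2 and 3 (27.5 ± 2.5, SD, n = 3) at 73.6 kb. BCL2, which encodes an inhibitor of apoptosis, held one of 18.6, 22.2 and 16.2-fold (19.0 ± 3.0). ZIC2, a zinc finger gene related to the GLI genes, had one 1.33 kb away with 19.8, 15.7 and 16.2-fold (17.2 ± 2.2). NKX6-1, a ventral homeobox gene of the neural tube, had 4 regions of all 3 replicates, the strongest 84.1 kb away with 14.6, 15.5 and 11.8-fold (14.0 ± 1.9). SHH, the ligand gene, held a region of 9.14, 12.6 and 6.48-fold inside its span (9.41 ± 3.07; chromosome 7, 155804245 to 155804766). It was named after its values were seen. The ligand genes IHH and DHH had no region of any replicate.

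**Figure D5:**
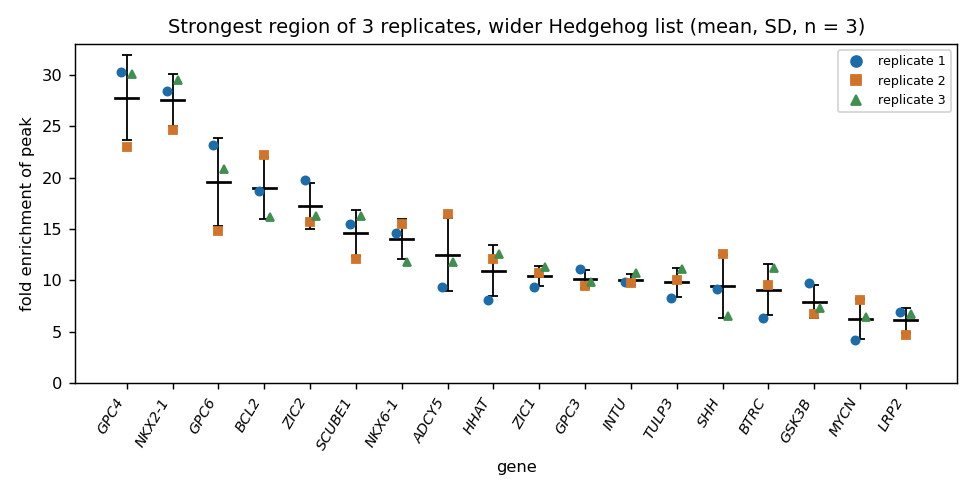
Fold enrichment (vertical axis) in each replicate of the strongest region of all 3 replicates, for the 18 genes of the wider Hedgehog list that have one, with the mean (bar) and SD (whisker, n = 3). GPC4 and NKX2-1 lead, with means of 27.8 and 27.5, and SHH lies at 9.41.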

How the data were processed

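Peak names in the deposited lists show 1 list for each of the 3 ChIP replicates. The build was hg38, and Trim Galore, Bowtie2, SAMtools, MACS3 and deepTools were used, per the submitters' processing notes. Versions, settings and the use of input are unknown here. For each peak the authors deposited a fold enrichment (a linear ratio to background) and a −log10 q-value, with a smallest value of 3.0. Peaks of several summits were reduced to the strongest summit, contigs outside chromosomes 1 to 22 and X were left out, and a merged region took the median of its replicates' summits as its position.

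Gene spans, listed starts and promoter sequences were taken from RefSeq tables of GRCh38.p14, the same build. All 56 list genes matched (a further gene is not reported here), and 8 of 10 members had a listed start. Inside several genes, the gene with the nearer end was taken. Python 3.11.15 was used, and merging and assignment were tested on simulated lists. No hypothesis was tested. Members and lists were chosen with earlier results of these data known, and the GLI-site word after seeing the data. All members and the 8 genes of the wider list with the strongest regions were named. Alternatives were a minimum −log10 q of 10, an overlap of 50% of the shorter interval, leaving out each replicate, genes of any kind, a limit of 100 kb, 2 replicates in place of 3, and, added after seeing the data, bridging gaps of up to 100 bp.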

Additional observations from a re-analysis of the deposited data

How the results depend on the processing

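The 11 GLI3 regions of all 3 replicates numbered 9 with peaks of −log10 q of at least 10, 9 with the nearest gene of any kind, 10 within 100 kb, and 11 under the other alternatives. The number of members with such a region was 4, against 12.3% of all protein-coding genes, and the alternatives moved both. It was 3 with −log10 q of at least 10 (7.74% of all), where PTCH1 lost both of its regions. It was 5 without replicate 1 (14.4%), 2 (16.4%) or 3 (14.7%), when a region needed both remaining replicates, and 6 with a peak of 2 replicates (20.1%), when BOC and GAS1 were added. With genes of any kind (8.38% of all) PTCH1 kept 1 of its 2 regions. The 15 regions at members ranged from 11 to 20. The 40 regions of any replicate fell to 20 with −log10 q of at least 10, since fewer peaks entered, and to 24 with genes of any kind, since noncoding genes took the others. They numbered 32 to 36 with 1 replicate left out, and 38 when gaps of up to 100 bp were bridged. The wider list had 18 genes with a region of all 3 replicates, and 13 (−log10 q of at least 10) to 26 (2 replicates) under the alternatives, whose shares of all protein-coding genes were likewise the lowest and the highest. With an overlap of 50%, the distant PTCH1 region was no longer a region of all 3 replicates. No paired analysis was possible because the input samples have no values here and the ChIP samples form 1 group. Depth is unknown, so a missing peak does not show that GSX2 was absent.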
